A study of Homo sapiens with 6 samples.

Results

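Glycolysis and the pentose phosphate pathway were examined as a set of 35 genes, namely 17 glycolytic enzymes, 4 transporters of glucose or lactate, 3 PFKFB enzymes, 9 enzymes of the pentose phosphate pathway and 2 phosphoglucomutases. The genes were found by symbol in the deposited expression table, where all 35 of them had 1 row each among 61806 genes. RNA-seq had been run on 6 libraries of HCT116, an established human colorectal carcinoma line cultured in McCoy's medium with fetal serum. In 3 libraries (si-NC) the cells had received a control small interfering RNA and in the other 3 (si-STRIP2) one directed at STRIP2, whose product belongs to the STRIPAK complex of phosphatase and kinases. The genotype is given as wildtype for the former and STRIP2 knockdown for the latter. The labels do not state how many different small interfering RNAs were used, how long the cells carried them, or whether replicates are independent cultures, so the p-values measure the spread between these libraries, which may be technical.

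Glycolysis splits glucose into pyruvate in the cytosol and yields ATP and NADH, and lactate dehydrogenase turns pyruvate into lactate, which leaves the cell through proton-coupled transporters. The pentose phosphate pathway starts from the same glucose phosphate. Its oxidative branch makes NADPH, and its reversible non-oxidative branch makes ribose phosphate for nucleotides and returns carbon to glycolysis. Tumour cells, including those of the colon, commonly run glycolysis at a high rate with oxygen present.

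Total counts lay between 17184963 and 21721218 per library, and the 35 genes took 0.923% to 0.965% of the counts in si-NC and 1.22% to 1.24% in si-STRIP2. STRIP2 itself had 3.19, 3.77 and 3.81 FPKM (fragments per kilobase of exon, scaled to the library total) in si-NC and 2.71, 2.53 and 2.58 FPKM in si-STRIP2, a residual level of 72.6% (log2 fold change -0.46, standard error 0.083, adjusted p = 1.62e-05). Mitochondrial genes took 4.88% to 8.88% of counts in si-NC and 5.73% to 6.30% in si-STRIP2. Of 6 markers of colorectal epithelium, 5 were at 1 FPKM or more in every library, and the exception was VIL1, which was at or below 0.03 FPKM, and the 6 summed to 688 to 718 FPKM in si-NC and 664 to 688 FPKM in si-STRIP2. The 8 markers of leukocytes, fibroblasts and endothelium summed to 2.41 to 2.76 FPKM in si-NC and 2.13 to 2.36 FPKM in si-STRIP2, with COL1A2 at 0 and most of the sum from COL1A1.

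After STRIP2 knockdown 14 of 17 glycolytic enzymes and 4 of 8 tested pentose phosphate enzymes were called higher. Of the 35 genes, 34 passed the filter on low counts, and TKTL1 did not. By the edgeR quasi-likelihood test, with adjusted p under 0.05 as the call, 22 rose, 9 fell and 3 did not pass. Over all 15687 genes tested, 27.8% were called higher and 27.0% lower, 54.8% in all. The median log2 fold change was 0.26 over the 34 genes and 0.014 over all genes tested. In 31 of the 35 genes the FPKM of the groups did not overlap, against 58.6% of all genes tested. At a call of at least 1.5-fold, a size chosen after the values had been seen, 7 of the genes were higher and 1 was lower, and the same call was met by 6.35% of all tested genes in the higher and 8.10% in the lower direction. The standard errors of the log2 fold changes ranged from 0.039 to 0.118 over the 34 genes.

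**Figure D1:**
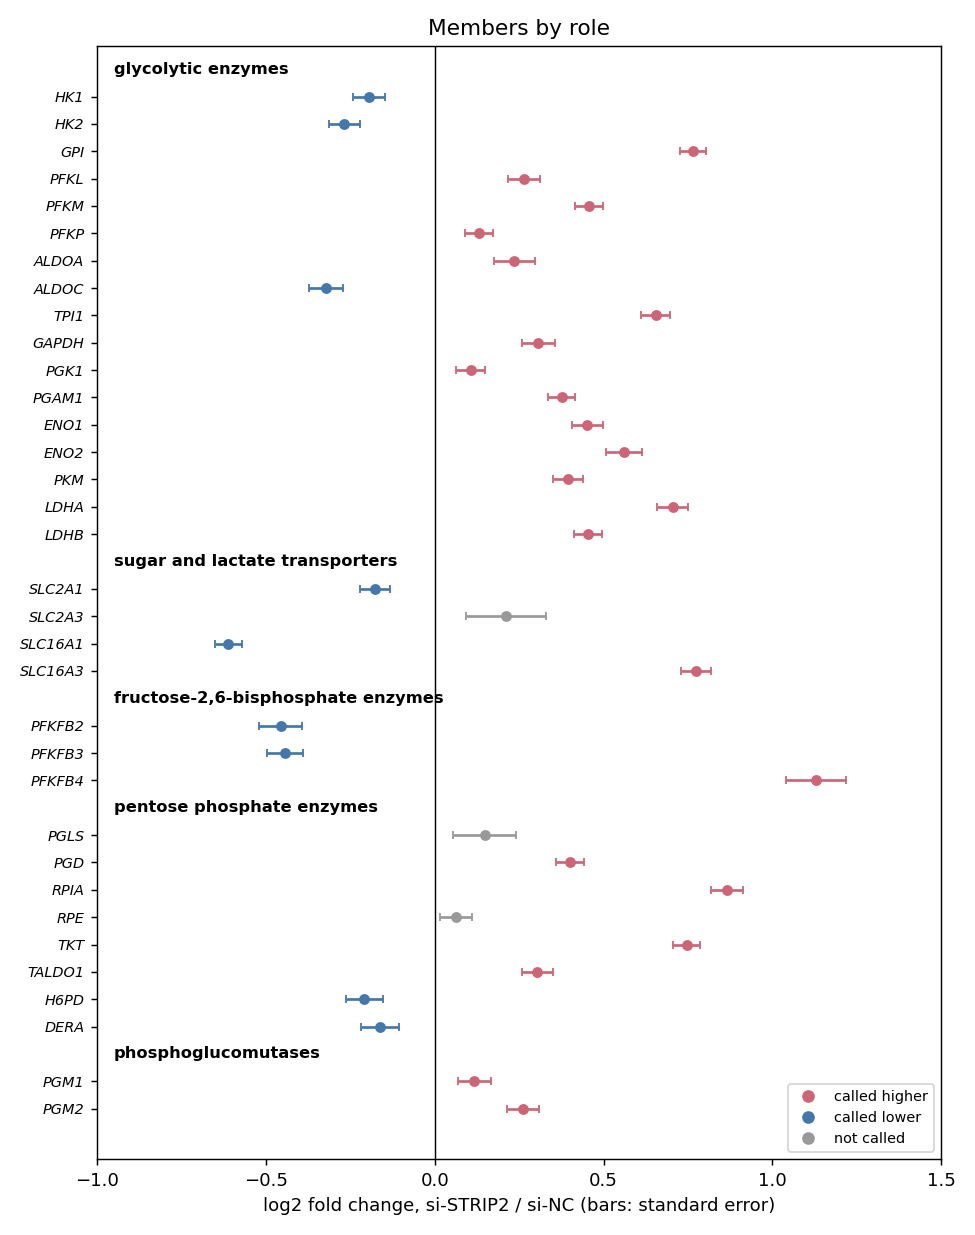
Log2 fold change of each tested gene (horizontal axis, si-STRIP2 over si-NC, 3 libraries each) with its standard error from the edgeR fit, grouped by role; red marks genes called higher, blue genes called lower and grey genes that did not pass, and TKTL1 is not shown because it was not tested. The points lie between -0.61 for SLC16A1 and 1.13 for PFKFB4, and 14 of the 17 glycolytic enzymes lie to the right of 0.

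At the first step of glycolysis both genes fell. HK1 and HK2 encode hexokinases, which phosphorylate glucose on entry. HK2 had 12.7, 13.6 and 12.6 FPKM in si-NC and 10.5, 11 and 10.9 FPKM in si-STRIP2, so that every knockdown library lay below every control. HK2 fell by 0.27 on the log2 scale (standard error 0.047, adjusted p = 9.75e-06) and HK1 by 0.19 (standard error 0.048, adjusted p = 0.000787). HK2 made up 50% ± 0.755 of the FPKM of the pair in the controls and 48.8% ± 1.02 after knockdown (SD, n = 3), with overlapping values.

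Glucose phosphate isomerase, the next enzyme, had the largest rise of the 17. GPI (ENSG00000105220, chromosome 19, 34359480 to 34402413, plus strand) had 25.3, 26.1 and 25.3 FPKM in si-NC and 43.3, 44.2 and 43.3 FPKM in si-STRIP2. The groups stood well apart, with a spread below 1 FPKM within each. The rise was 1.70-fold (log2 fold change 0.77, standard error 0.039, adjusted p = 1.77e-17).

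Phosphofructokinase commits sugar to glycolysis and is a tetramer of the products of PFKL, PFKM and PFKP. All 3 genes rose, PFKM by 0.46 on the log2 scale (standard error 0.042), PFKL by 0.26 (0.047) and PFKP by 0.13 (0.041). PFKM went from 12.01, 12.1 and 12.5 FPKM to 17.0, 16.9 and 16.4 FPKM. Because PFKP moved least, its share of the summed FPKM of the 3 genes was 53.9% ± 1.07 in the controls and 49.6% ± 0.921 after knockdown, and the share of PFKM was 28.1% ± 1.04 and 32.3% ± 0.563 (SD, n = 3). Neither share overlapped between groups. SENP1, which lies on the opposite strand, shares 8.58% of the exonic bases of PFKM and had 38.3% as many counts. Whether reads were counted by strand is not given in the sources used here.

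Aldolase cleaves the sugar bisphosphate into triose phosphates, and its genes moved in opposite directions. ALDOC had 20.7, 21.5 and 19.96 FPKM in si-NC and 17.1, 16.6 and 16.1 FPKM in si-STRIP2, with no overlap (log2 fold change -0.32, standard error 0.051, adjusted p = 2.09e-06). ALDOA had 14.8, 12.5 and 15.6 FPKM in si-NC and 16.2, 17.9 and 16.7 FPKM in si-STRIP2 (log2 fold change 0.24, standard error 0.060, adjusted p = 0.00121). The control libraries of ALDOA were the most variable of the 34 tested genes, at a coefficient of variation of 11.4%. The level of ALDOA is uncertain, since 42.3% of its exonic bases in GENCODE 29 are shared with the same-strand gene ENSG00000285043, and reads that fit more than 1 gene may not have been counted.

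The triose and payoff steps all rose. TPI1, which interconverts the triose phosphates, had 143, 138 and 131 FPKM in si-NC and 215, 220 and 216 FPKM in si-STRIP2, a 1.57-fold rise (log2 fold change 0.65, standard error 0.042, adjusted p = 6.06e-15). Every knockdown library of TPI1 was far above every control. Counts on its 4 annotated pseudogenes came to 1.75% of its own.

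GAPDH, whose enzyme makes the first NADH and which is widely used as a reference gene, was the most abundant of the 35. Its values were 1071, 1064 and 1005 FPKM in si-NC and 1329, 1293 and 1272 FPKM in si-STRIP2. The rise of GAPDH was 1.24-fold (log2 fold change 0.31, standard error 0.049, adjusted p = 2.13e-06), with no overlap. Counts on the 62 annotated pseudogenes of GAPDH came to 0.184% of its own. PGK1, for the first ATP-yielding kinase, had the smallest called change of the glycolytic enzymes, from 82.5, 82.1 and 75.6 FPKM to 85.0, 87.5 and 86.8 FPKM (log2 fold change 0.11, standard error 0.042, adjusted p = 0.0326). The call of PGK1 was lost without si-NC replicate 3, si-STRIP2 replicate 2 or si-STRIP2 replicate 3, and its adjusted p lay between 0.0171 and 0.145 over the alternatives.

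PGAM1, the phosphoglycerate mutase gene, rose by 0.38 on the log2 scale (standard error 0.041), from 94.7 ± 3.29 to 123 ± 4.67 FPKM (SD, n = 3). Enolase was represented by ENO1, at 268, 262 and 251 FPKM in si-NC and 355, 364 and 351 FPKM in si-STRIP2, and by ENO2, the form best known from neurons, at 10.4, 9.39 and 10.1 FPKM in si-NC and 14.1, 15.5 and 14.7 FPKM in si-STRIP2. Both rose, ENO1 by 0.45 (standard error 0.046) and ENO2 by 0.56 (standard error 0.054) on the log2 scale, and neither overlapped between groups. PKM, the pyruvate kinase gene, had 125, 124 and 125 FPKM in si-NC and 164, 168 and 161 FPKM in si-STRIP2. The PKM groups were also separate (log2 fold change 0.40, standard error 0.044, adjusted p = 2.10e-09). The counts are per gene and do not separate the spliced forms of PKM.

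Lactate dehydrogenase rose through both subunit genes, and more through LDHA, the subunit typical of muscle and of glycolytic tumours. LDHA (ENSG00000134333, chromosome 11, 18394560 to 18408425, plus strand) had 129, 131 and 120 FPKM in si-NC and 203, 208 and 211 FPKM in si-STRIP2, a 1.63-fold rise (log2 fold change 0.70, standard error 0.045, adjusted p = 4.08e-15). LDHB, the subunit typical of heart, had 128, 134 and 122 FPKM in si-NC and 174, 175 and 177 FPKM in si-STRIP2, a 1.37-fold rise (log2 fold change 0.45, standard error 0.042, adjusted p = 2.88e-11). Neither gene overlapped between groups. LDHA made up 49.8% ± 0.403 of the summed FPKM in the controls and 54.2% ± 0.338 after knockdown (SD, n = 3), again with no overlap. The level of LDHB carries some doubt, as 33.4% of its exonic bases are shared with a same-strand gene that had 0.0588% as many counts.

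**Figure D2:**
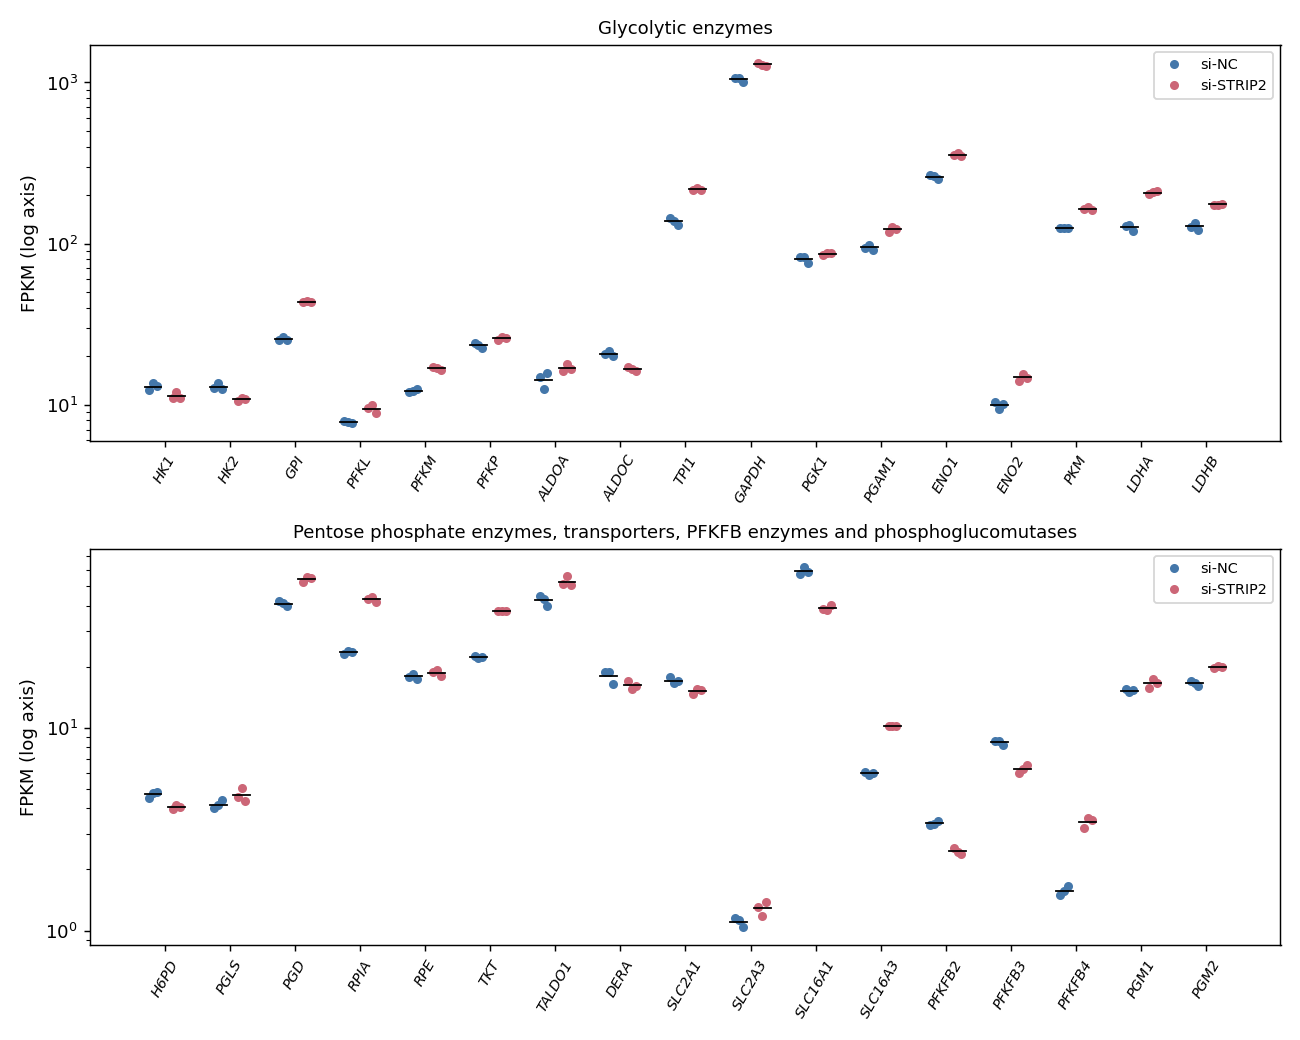
FPKM of each gene in each library on a log axis, in pathway order, with glycolytic enzymes above and the other tested genes below; blue points are the 3 si-NC libraries, red points the 3 si-STRIP2 libraries and black lines their means. GAPDH is highest at 1047 FPKM in si-NC, the red points lie above the blue from TPI1 to LDHB, and SLC16A1 and SLC16A3 move toward each other.

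The lactate transporters moved in opposite directions. SLC16A1 encodes MCT1, which carries lactate either way, and SLC16A3 encodes MCT4, the low-affinity form associated with lactate export from glycolytic cells. SLC16A1 (ENSG00000155380, chromosome 1, 112911847 to 112957593, minus strand) had 57.6, 62.0 and 58.7 FPKM in si-NC and 38.5, 38.1 and 40.2 FPKM in si-STRIP2, a 1.53-fold fall (log2 fold change -0.61, standard error 0.041, adjusted p = 1.08e-14). SLC16A3 (ENSG00000141526, chromosome 17, 82217934 to 82261129, plus strand) had 6.02, 5.87 and 6.01 FPKM in si-NC and 10.2, 10.2 and 10.3 FPKM in si-STRIP2, a 1.71-fold rise (log2 fold change 0.77, standard error 0.045, adjusted p = 3.05e-16). Their groups were far apart in both genes. SLC16A3 was 9.14% ± 0.427 of the summed FPKM of the pair in the controls and 20.8% ± 0.434 after knockdown, while the sum itself was 65.4 ± 2.199 and 49.2 ± 1.12 FPKM (SD, n = 3). CSNK1D, on the strand opposite to SLC16A3, shares 5.36% of its exonic bases and had 178% as many counts.

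Of the glucose transporters, SLC2A1 (GLUT1, the general importer) fell and SLC2A3 (GLUT3, a high-affinity form) was low. SLC2A1 had 17.7, 16.6 and 17.0 FPKM in si-NC and 14.7, 15.5 and 15.3 FPKM in si-STRIP2 (log2 fold change -0.18, standard error 0.044, adjusted p = 0.000956), and the groups did not overlap. SLC2A3 had 1.15, 1.13 and 1.04 FPKM in si-NC and 1.30, 1.18 and 1.38 FPKM in si-STRIP2 (log2 fold change 0.21, standard error 0.118, adjusted p = 0.130), so that it did not pass although its groups did not overlap. SLC2A1 accounted for 93.9% ± 0.315 of the summed FPKM of the pair in the controls and 92.2% ± 0.650 after knockdown (SD, n = 3). SLC2A14, a near copy of SLC2A3, had 2 counts in all libraries against 795 for SLC2A3.

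PFKFB enzymes make and remove the fructose bisphosphate that activates phosphofructokinase. PFKFB3 is the form with the strongest kinase activity, and PFKFB4 is known from testis and tumours. PFKFB4 (ENSG00000114268, chromosome 3, 48517684 to 48562015, minus strand) had 1.49, 1.57 and 1.65 FPKM in si-NC and 3.22, 3.59 and 3.52 FPKM in si-STRIP2, a 2.19-fold rise (log2 fold change 1.13, standard error 0.088, adjusted p = 6.16e-13). This was the largest change of the 34 genes tested. PFKFB3 had 8.60, 8.57 and 8.22 FPKM in si-NC and 5.96, 6.26 and 6.52 FPKM in si-STRIP2, a 1.36-fold fall (log2 fold change -0.44, standard error 0.054, adjusted p = 1.61e-08). PFKFB2 had 3.30, 3.37 and 3.46 FPKM in si-NC and 2.56, 2.45 and 2.39 FPKM in si-STRIP2, a 1.37-fold fall (log2 fold change -0.46, standard error 0.063, adjusted p = 2.06e-07). All 3 genes were free of overlap between groups, and PFKFB4 held 11.7% ± 0.630 of their summed FPKM in the controls and 28.3% ± 0.880 after knockdown (SD, n = 3). YOD1, on the strand opposite to PFKFB2, shares 3.09% of its exonic bases and had 120% as many counts as PFKFB2.

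**Figure D3:**
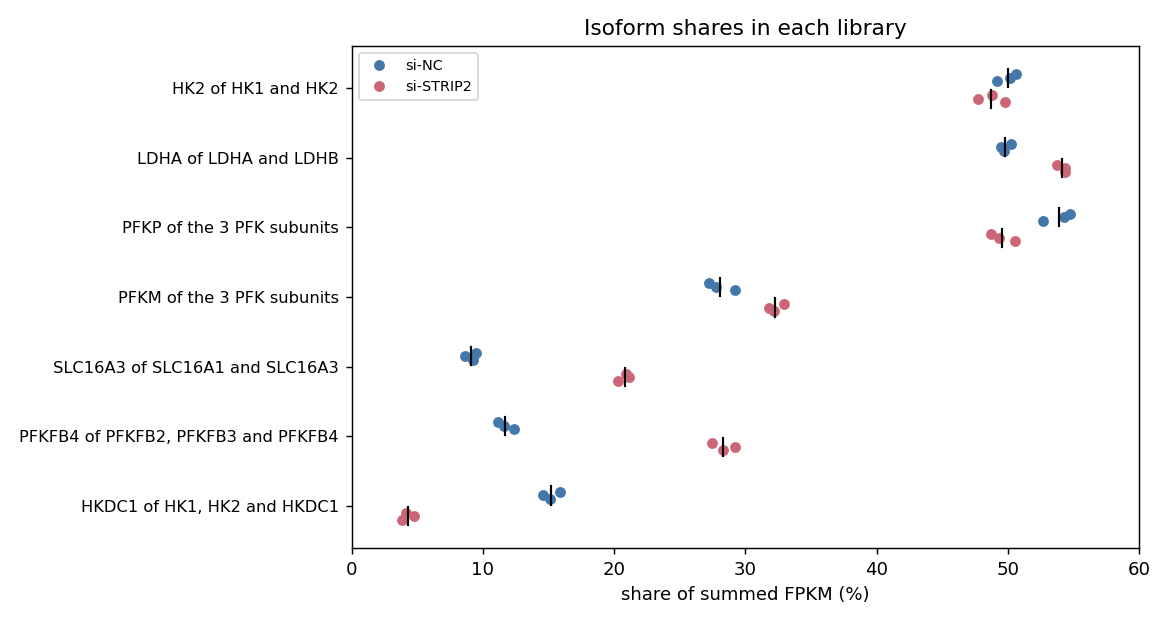
Share of the summed FPKM (horizontal axis, percent) that 1 gene held among related genes, with 1 point per library (blue si-NC, red si-STRIP2) and the group mean as a black line. The shares of PFKFB4 and SLC16A3 lie more than 10 points higher in si-STRIP2, that of HKDC1 lies more than 10 points lower, and that of HK2 overlaps between groups.

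In the oxidative branch of the pentose phosphate pathway, 1 gene rose, 1 fell and 1 did not pass. PGD, for the phosphogluconate dehydrogenase that makes NADPH, had 42.1, 41.1 and 39.8 FPKM in si-NC and 52.4, 55.5 and 54.9 FPKM in si-STRIP2, a 1.32-fold rise (log2 fold change 0.40, standard error 0.042, adjusted p = 5.27e-10). H6PD, whose enzyme carries out the first steps inside the endoplasmic reticulum, had 4.52, 4.75 and 4.83 FPKM in si-NC and 3.99, 4.14 and 4.09 FPKM in si-STRIP2 (log2 fold change -0.21, standard error 0.055, adjusted p = 0.00157). Both were free of overlap. PGLS, the phosphogluconolactonase gene, had 4.00, 4.15 and 4.38 FPKM in si-NC and 4.54, 5.04 and 4.33 FPKM in si-STRIP2, and its overlapping groups did not pass (log2 fold change 0.15, standard error 0.093, adjusted p = 0.179).

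The non-oxidative branch held the largest rises of the pathway. RPIA (ENSG00000153574, chromosome 2, 88691673 to 88750929, plus strand), for the isomerase that forms ribose phosphate, had 23.1, 23.9 and 23.8 FPKM in si-NC and 43.1, 44.1 and 41.9 FPKM in si-STRIP2, a 1.82-fold rise (log2 fold change 0.86, standard error 0.048, adjusted p = 8.51e-17). TKT (ENSG00000163931, chromosome 3, 53224712 to 53256052, minus strand), for transketolase, which moves carbon between the pathways, had 22.7, 22.1 and 22.4 FPKM in si-NC and 37.7, 37.8 and 37.6 FPKM in si-STRIP2, a 1.68-fold rise (log2 fold change 0.75, standard error 0.039, adjusted p = 2.54e-17). The knockdown libraries of both genes stood far above the controls. TALDO1, the transaldolase gene, had 44.4, 43.0 and 40.1 FPKM in si-NC and 51.4, 55.8 and 50.8 FPKM in si-STRIP2 (log2 fold change 0.30, standard error 0.045, adjusted p = 7.16e-07), also with no overlap.

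RPE, for the epimerase beside RPIA, gave no call. It had 17.9, 18.5 and 17.3 FPKM in si-NC and 18.9, 19.4 and 17.98 FPKM in si-STRIP2, which overlap (log2 fold change 0.062, standard error 0.047, adjusted p = 0.271). RPE shares 23.8% of its exonic bases with KANSL1L on the opposite strand. TKTL1, a transketolase-like gene, had 2, 0 and 7 counts in si-NC and 2, 2 and 0 counts in si-STRIP2, and a count of 0 allows up to 3, so no fold is given. DERA, which breaks down deoxyribose phosphate, had 18.8, 18.9 and 16.5 FPKM in si-NC and 16.9, 15.6 and 16.1 FPKM in si-STRIP2. The DERA groups overlapped through si-NC replicate 3 (log2 fold change -0.16, standard error 0.055, adjusted p = 0.0135). That call was lost without si-NC replicate 1, si-NC replicate 2 or si-STRIP2 replicate 2, and the adjusted p lay between 0.000775 and 0.0970 over the alternatives.

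Among the phosphoglucomutases, PGM1 links glucose phosphate with glycogen, and PGM2 acts mainly on ribose phosphate. PGM2 had 17.1, 16.6 and 16.1 FPKM in si-NC and 19.7, 20.3 and 19.9 FPKM in si-STRIP2, with no overlap (log2 fold change 0.26, standard error 0.046, adjusted p = 1.29e-05). PGM1 had 15.5, 14.96 and 15.3 FPKM in si-NC and 15.7, 17.5 and 16.6 FPKM in si-STRIP2 (log2 fold change 0.12, standard error 0.049, adjusted p = 0.0414). The call of PGM1 was lost under 10 of 15 alternatives, 5 of which left out 1 library (each one but si-STRIP2 replicate 1), and the adjusted p over them ranged from 0.0106 to 0.239. ITGB3BP, on the opposite strand, shares 4.68% of the exonic bases of PGM1 and had 73.0% as many counts.

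Glycolytic and pentose phosphate enzymes were set side by side. Of the 17 glycolytic enzymes, 14 rose and 3 fell, with a median log2 fold change of 0.38. Of the 8 tested pentose phosphate enzymes, 4 rose, 2 fell and 2 did not pass, with a median of 0.23, and within them the 4 tested non-oxidative genes had a median of 0.53 and the 3 oxidative genes one of 0.15. The difference between the pathways was not tested. The FPKM of the glycolytic enzymes summed to 2180, 2174 and 2060 in si-NC and 2806, 2812 and 2762 in si-STRIP2, a ratio of the means of 1.31. The pentose phosphate enzymes summed to 177, 176 and 169 FPKM in si-NC and 229, 237 and 228 FPKM in si-STRIP2, a ratio of 1.33. Neither sum overlapped between groups, whereas the glycolytic sum divided by the pentose phosphate sum did, at 12.3 ± 0.0798 in the controls and 12.1 ± 0.212 after knockdown (SD, n = 3). GAPDH alone contributed 1047 of the 2138 FPKM of the glycolytic sum in si-NC.

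By step, summed over the genes of each enzyme, the ratio of si-STRIP2 to si-NC was 0.853 for hexokinase, 1.70 for glucose phosphate isomerase, 1.19 for phosphofructokinase, 0.958 for aldolase and 1.58 for triose phosphate isomerase. It was 1.24 for GAPDH, 1.08 for phosphoglycerate kinase, 1.30 for the mutase, 1.37 for enolase, 1.32 for pyruvate kinase and 1.502 for lactate dehydrogenase. Ratios below 1 were found for hexokinase, whose sums did not overlap between groups, and for aldolase, whose sums overlapped and carry the doubt on ALDOA given above.

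Higher calls were more frequent among abundant transcripts. Of 705 tested genes with a mean of at least 50 FPKM over the 6 libraries, 49.4% were called higher and 28.8% lower. All 8 genes of the set in that class rose, namely GAPDH, ENO1, TPI1, LDHA, LDHB, PKM, PGAM1 and PGK1. SLC16A1, which fell, lay just under the limit at 49.2 FPKM. Between 10 and 50 FPKM, 11 of 18 rose and 6 fell, against 35.7% and 35.4% of all tested genes of that class, and under 10 FPKM 3 of 8 rose and 3 fell, against 24.1% and 24.4%.

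Upstream sequences are shown for the 4 genes with the largest rises and the 1 with the lowest log2 fold change among the 21 genes with a single start site in the RefSeq promoter table (GRCh38.p14), because these moved most in each direction. The table matched 32 of the 35 genes. SLC16A1, SLC2A3 and PFKFB2 were not among the 32. Each line gives the 250 bases before the RefSeq start site, 5′ to 3′ on the strand of the gene. The gene spans printed above are those of the deposited annotation, and some of them begin upstream of the RefSeq start site. The windows of GPI and PFKFB4 thus lie inside their gene spans, and those of TKT and ALDOC overlap the start of theirs. Capitals mark any match, on either strand, to the core of the hypoxia response element (ACGTG or GCGTG, bound by HIF proteins), the E-box CACGTG (bound by the glucose-sensing MLX factors, among others), or the antioxidant response core TGACNNNGC (bound by NRF2). An E-box also contains the hypoxia core letters.
PFKFB4, chr3:48556804-48557053, minus strand: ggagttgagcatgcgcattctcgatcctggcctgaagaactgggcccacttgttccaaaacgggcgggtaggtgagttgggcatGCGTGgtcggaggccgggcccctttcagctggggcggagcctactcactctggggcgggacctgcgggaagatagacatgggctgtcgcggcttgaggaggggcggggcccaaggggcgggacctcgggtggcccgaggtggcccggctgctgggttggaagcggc
RPIA, chr2:88691423-88691672, plus strand: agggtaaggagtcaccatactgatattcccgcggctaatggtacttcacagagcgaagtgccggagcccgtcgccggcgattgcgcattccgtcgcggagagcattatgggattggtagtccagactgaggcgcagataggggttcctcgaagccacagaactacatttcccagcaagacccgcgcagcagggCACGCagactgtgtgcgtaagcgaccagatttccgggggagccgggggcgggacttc
GPI, chr19:34364742-34364991, plus strand: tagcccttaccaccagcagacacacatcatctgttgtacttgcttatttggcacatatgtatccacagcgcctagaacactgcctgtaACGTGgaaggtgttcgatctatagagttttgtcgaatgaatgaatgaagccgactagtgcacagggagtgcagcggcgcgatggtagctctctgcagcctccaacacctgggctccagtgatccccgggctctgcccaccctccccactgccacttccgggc
TKT, chr3:53256023-53256272, minus strand: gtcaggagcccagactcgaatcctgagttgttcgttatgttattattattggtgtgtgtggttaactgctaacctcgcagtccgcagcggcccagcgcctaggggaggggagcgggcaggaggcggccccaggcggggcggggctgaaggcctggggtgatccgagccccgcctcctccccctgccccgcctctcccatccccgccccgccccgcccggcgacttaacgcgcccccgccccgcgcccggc
ALDOC, chr17:28576896-28577145, minus strand: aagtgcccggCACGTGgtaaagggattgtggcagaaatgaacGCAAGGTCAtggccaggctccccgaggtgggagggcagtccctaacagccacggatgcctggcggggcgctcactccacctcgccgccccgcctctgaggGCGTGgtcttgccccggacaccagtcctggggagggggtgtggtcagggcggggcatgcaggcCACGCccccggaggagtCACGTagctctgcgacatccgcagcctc

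The gene that fell held more of these letters than the 4 that rose. The hypoxia core occurred 1 time in PFKFB4, RPIA and GPI, counted on both strands, 0 times in TKT and 5 times in ALDOC, which also held 1 E-box, counted on each strand as a hypoxia core, and 1 antioxidant core. Over all 60 start sites of the 32 genes, 30 windows (50%) held the hypoxia core, against 43.2% of the 35116 windows in the table. The E-box was found in 7 (11.7%) against 6.34%, and the antioxidant core in 7 (11.7%) against 10.9%. By gene, the hypoxia core was present at 1 start site or more in 17 of 22 genes that rose and in 5 of 7 that fell. The share by gene over all genes is not given here. A gene with more start sites has more chances of a match, so these counts cannot be set against the share of windows. The median share of G and C was 67.6% in the windows of the 32 genes and 58.0% in all windows of the table, and a match is a description of letters and not of binding.

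Hypoxia factors are known activators of many glycolytic genes, and the transcripts of both oxygen-regulated subunits fell. HIF1A, for the subunit of HIF1, had 78.4, 82.7 and 76.8 FPKM in si-NC and 51.7, 53.1 and 53.2 FPKM in si-STRIP2, a 1.51-fold fall (log2 fold change -0.59, standard error 0.040, adjusted p = 1.99e-14). EPAS1, for the related HIF2 subunit, fell by 0.73 on the log2 scale (standard error 0.049, adjusted p = 1.31e-14), and neither gene overlapped between groups. Of the 22 genes in the list of hypoxia factors and of their targets outside glycolysis, 4 rose, 12 fell and 6 did not pass. Their median log2 fold change was -0.14. DESeq2 and both limma fits called 2 higher, and with the filter of at least 5 FPKM the median was -0.37. Over all genes tested, 27.8% were called higher and 27.0% lower. The list also holds regulators of the factors, among which VHL fell and HIF1AN and EGLN2 rose. VEGFA, the vascular growth factor gene and a standard hypoxia target, had the smallest adjusted p, going from 12.8, 12.5 and 13.2 FPKM to 7.56, 7.61 and 7.20 FPKM (log2 fold change -0.78, standard error 0.042, adjusted p = 3.86e-17). CA9, another such target, was at or below 0.64 FPKM in every library and did not pass. The 12 that fell include HIF1A, EPAS1, ARNT and VHL, which are factors or regulators. Targets did not all move one way. CA12, VEGFA, BNIP3L, NDRG1, P4HA1, DDIT4, MXI1 and INSIG2 fell, but KDM3A and BNIP3 rose. KDM3A rose by 0.45 (adjusted p = 5.35e-10) and BNIP3 by 0.15 (adjusted p = 0.0246) on the log2 scale.

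**Figure D4:**
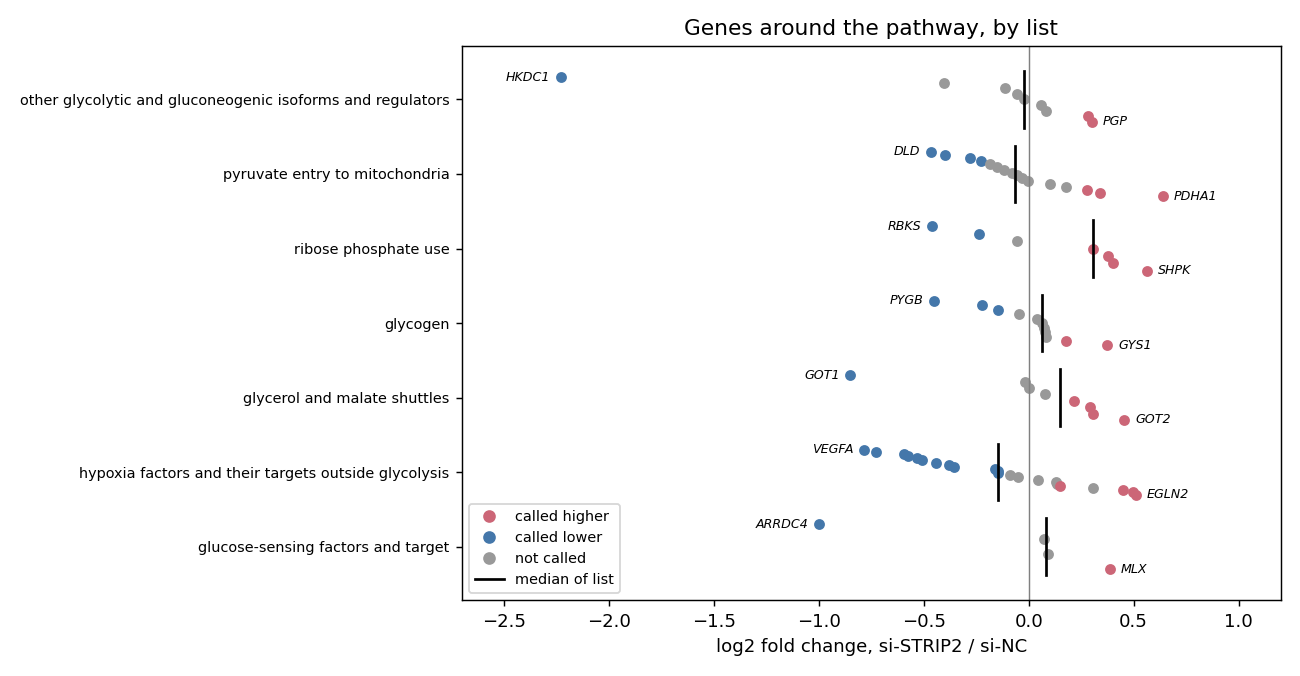
Log2 fold change (horizontal axis, si-STRIP2 over si-NC) of tested genes outside the 35, by list, with red for genes called higher, blue for genes called lower, grey for genes that did not pass and a black line at the median of each list; the lowest and highest gene of each list is named. HKDC1 lies lowest at -2.23, and the list medians lie between -0.14 and 0.31.

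Glucose-sensing factors and their targets were represented by 5 genes. TXNIP, a target, was not tested, since it had 2 counts over all libraries, which left ARRDC4 as the only target tested. MLX, the partner of the glucose-sensing factors, rose by 0.39 (standard error 0.056, adjusted p = 4.88e-07), and MLXIP and MLXIPL did not pass. ARRDC4, a relative of TXNIP and a target of these factors, fell 2.00-fold, from 37.0, 38.9 and 36.8 FPKM to 18.6, 19.0 and 18.9 FPKM (log2 fold change -0.998, standard error 0.042, adjusted p = 7.79e-20).

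Other isoforms and regulators of the pathway, called other isoforms below, varied widely in level. They ran from PGAM2, with 0 FPKM, to MINPP1, with a mean of 11.3 FPKM over all libraries. Of 15 such genes, 9 were tested, 2 rose, 1 fell and 6 did not pass. Over all genes tested, 27.8% were called higher and 27.0% lower. The median log2 fold change of the 9 genes was -0.021. That median changed sign without si-NC replicate 3 (0.049) or si-STRIP2 replicate 1 (0.029), with limma (0.052 and 0.057) and with a filter of at least 5 FPKM (0.17), and it was -0.12 without si-NC replicate 1. The gene that fell was HKDC1, a further hexokinase, which had 4.72, 4.64 and 4.55 FPKM in si-NC and 0.93, 1.16 and 0.88 FPKM in si-STRIP2. This 4.68-fold fall (log2 fold change -2.23, standard error 0.108, adjusted p = 3.70e-18) was larger than that of any of the 35 genes. HKDC1 was 15.2% ± 0.658 of the summed FPKM of the 3 hexokinase genes in the controls and 4.27% ± 0.470 after knockdown, and that sum was 30.5 ± 1.13 and 23.1 ± 0.977 FPKM (SD, n = 3). PGP and MINPP1, for phosphatases of pathway intermediates, rose by 0.30 (standard error 0.082) and 0.28 (standard error 0.061).

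Of 16 tested genes around the entry of pyruvate into mitochondria, 3 rose, 4 fell and 9 did not pass, with a median of -0.067. They include regulators of pyruvate dehydrogenase, such as PDPR, which rose, and PDP1, which fell. All genes tested were called higher in 27.8% and lower in 27.0%, and their median was 0.014. Within pyruvate dehydrogenase, PDHA1 rose 1.56-fold from 13.4 ± 0.322 to 20.9 ± 0.563 FPKM (adjusted p = 2.28e-14), and DLD, for the subunit that it shares with other complexes, fell 1.38-fold from 38.7 ± 1.43 to 28.1 ± 0.911 FPKM (SD, n = 3; adjusted p = 1.74e-11). PCK2, which returns carbon from mitochondria toward glycolysis, fell by 0.40 on the log2 scale (adjusted p = 1.47e-09).

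Of the 7 genes listed around ribose phosphate, 4 rose and 2 fell, with a median of 0.31. The shares over all genes tested, for this list and those below, were 27.8% called higher and 27.0% lower. The list also holds genes that act on other sugars or sugar phosphates, namely SHPK, which rose, and PGM2L1, which fell. PRPS2, PRPSAP1 and PRPS1, of the synthetase that makes the activated ribose of nucleotides, rose by 0.38, 0.40 and 0.31 on the log2 scale, with adjusted p-values of 2.22e-09, 5.10e-09 and 1.89e-06. These stand beside the 1.82-fold rise of RPIA, whose product the synthetase uses. The list was not uniform, as PRPSAP2 did not pass (log2 fold change -0.057, adjusted p = 0.322). RBKS, at a mean of 1.16 FPKM in si-NC, fell by 0.46 on the log2 scale (adjusted p = 0.0294). Of the 11 glycogen genes, 2 rose, 3 fell and 6 did not pass (median 0.064). Calls in the glycogen list were thus no more frequent than the 54.8% called over all genes tested. PYGB, the brain-type phosphorylase gene, fell by 0.45, GYS1, for glycogen synthase, rose by 0.37 and GBE1, for the branching enzyme, fell by 0.22 on the log2 scale. Of 8 genes of the shuttles that reoxidise the NADH of glycolysis, 4 rose and 1 fell (median 0.15). The malate shuttle split at its transaminases, since the cytosolic GOT1 fell 1.80-fold from 137 ± 5.40 to 76.1 ± 1.51 FPKM and the mitochondrial GOT2 rose 1.37-fold from 41.8 ± 1.00 to 57.5 ± 1.03 FPKM (SD, n = 3), with adjusted p-values of 3.10e-18 and 1.11e-11, while MDH1 rose by 0.31 on the log2 scale.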

How the data were processed

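RNA from 3 si-NC and 3 si-STRIP2 libraries of HCT116 cells was poly(A)-selected and made into directional libraries, per the labels' protocols. The deposited table gives raw counts per gene and library, and FPKM values that the authors scaled by exonic size and library total, per the file headers; a recomputation from counts and sizes differed by at most 0.005. The submitters' processing notes name HISAT2 2.2.1, HTSeq 0.6.1 and GRCh38.p13; strand use and annotation release are not given in the sources used here. Counts were tested with edgeR 4.0.16 in R 4.3.3 (filterByExpr with a minimum count of 10, TMM scaling, quasi-likelihood F test, group as the only term) over 15687 genes, with Benjamini-Hochberg adjustment over all of them and calls at an adjusted p under 0.05. The standard error of a log2 fold change was its size over the root of the F statistic. Sums and shares of FPKM were given no test. Alternatives used DESeq2 1.42.0, limma 3.58.1 on log2(FPKM + 1) and log2(FPKM + 0.1), other scalings and filters, a replicate block, and each library left out. The 35 genes, the lists and the rule for named genes (all 35, STRIP2, HIF1A and, per list, the 3 called genes with the smallest adjusted p) were chosen with earlier results of these data known, and further genes were named after their values were seen. Exon sharing and pseudogenes were taken from GENCODE 29, and promoters from RefSeq.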

Additional observations from a re-analysis of the deposited data

How the results depend on the processing

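Of the 31 genes called among the 35, 28 kept their direction and call under every alternative that tested them, 3 (PGK1, DERA and PGM1) lost the call under some, and 0 changed direction. The median over all genes tested stayed between 0.0021 and 0.046. The replicate numbers did not pair the libraries, as the correlations of same-numbered deviations were -0.10, -0.012 and -0.10, and no paired claim is made. With the number as a replicate block, 52.9% of all tested genes were called, 1 phosphoglucomutase was called higher in place of 2, and PGK1 lost its call. A single phosphoglucomutase was also called higher with DESeq2, with library sizes without mitochondrial genes, with no filter and with the filter of at least 5 FPKM. DESeq2 further called 1 ribose phosphate gene lower, 1 glycogen gene higher and 2 hypoxia genes higher. DESeq2 called 46.1% of all tested genes, no filter 25.5% and the 5 FPKM filter 71.9%.

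The 5 FPKM filter, which tests fewer genes, gave medians of -0.19 for transporters, 0.34 for pentose phosphate enzymes, 0.17 for other isoforms, -0.0991 for pyruvate entry, 0.029 for glycogen, 0.20 for shuttles and -0.37 for hypoxia genes. It left 0 PFKFB genes called higher and 1 lower, 1 pentose phosphate gene lower, 0 other isoforms lower and 0 ribose phosphate genes lower. No filter gave medians of 0.15 for pentose phosphate enzymes and -0.0839 for other isoforms. Limma with a pseudocount of 1 gave medians of -0.0216 for transporters, -0.34 for PFKFB genes, 0.052 for other isoforms and 0.21 for shuttles, and with a pseudocount of 0.1 gave 0.057 for other isoforms and 0.22 for shuttles. Both called 1 pentose phosphate gene lower, 1 ribose phosphate gene lower and 2 hypoxia genes higher. The cause was not tested. The 1.5-fold rule, chosen after seeing the data, gave 7 genes higher and 1 lower, that is 3 glycolytic enzymes higher and 0 lower, 1 transporter lower, 0 PFKFB genes lower, 2 pentose phosphate enzymes higher and 0 lower, and 0 phosphoglucomutases higher. Shares of counts in place of FPKM were 48.5% and 47.2% for HK2, 66.8% and 70.5% for LDHA (si-NC and si-STRIP2) and 94.4% for SLC2A1 in si-NC, since gene length then weighs in.

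With each library left out, pentose phosphate genes called lower ranged from 1 to 2 (1 without si-NC replicate 1, si-NC replicate 2 or si-STRIP2 replicate 2) and phosphoglucomutases called higher from 1 to 2 (2 only without si-STRIP2 replicate 1). Ribose phosphate genes lower ranged from 1 to 2 (1 without si-NC replicate 1, si-STRIP2 replicate 2 or si-STRIP2 replicate 3), glycogen genes higher from 1 to 2 (1 without si-NC or si-STRIP2 replicate 3) and glucose-sensing genes higher from 1 to 2 (2 without si-NC replicate 3). Medians ranged from -0.45 to -0.40 for PFKFB genes, from -0.12 (without si-NC replicate 1) to 0.049 (without si-NC replicate 3) for other isoforms, from 0.029 (without si-STRIP2 replicate 3) to 0.0576 for glycogen, from 0.12 to 0.22 for shuttles, from -0.18 to -0.12 for hypoxia genes and from 0.038 (without si-NC replicate 2) to 0.15 (without si-NC replicate 3) for glucose-sensing genes. Depth limits SLC2A3, PGLS and TKTL1 most.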

Other observations

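Beyond pyruvate, the deposited annotation places 37 tested genes under the citrate cycle. Of these, 19 (3 of them pseudogenes of SDHA) were called higher and 7 lower, beside 27.8% and 27.0% of all genes tested. The 7 include SSR4, DIXDC1 and ACADM, whose products are not enzymes of the cycle. The median log2 fold change of the 37 genes was 0.26. The subunits of 1 enzyme are named here, chosen after their values were seen. Succinate dehydrogenase, an enzyme of 4 subunits, was split. SDHA, SDHB and SDHD rose by 0.66, 0.27 and 0.34 on the log2 scale, and SDHC fell by 0.58, from 47.8 ± 1.40 to 32.2 ± 0.481 FPKM (SD, n = 3; adjusted p = 6.23e-13). SDHA has annotated pseudogenes that were also counted, and SDHAP1, SDHAP3 and SDHAP4 were called higher as well, so its reads may be divided among them.

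GAPDH, TPI1 and ENO2 lie within 389187 bases of chromosome 12 (6534512 to 6923698). Of the 20 other tested genes in that interval, 9 were called higher and 1 lower, with a median log2 fold change of 0.37, beside 27.8% higher and 27.0% lower over all genes tested. HKDC1, which fell 4.68-fold, ends 2431 bases before HK1 on chromosome 10, and HK1 fell 1.14-fold. TXNIP had 1, 0 and 0 counts in si-NC and 1, 0 and 0 counts in si-STRIP2, while its relative ARRDC4 was at 37.6 FPKM in si-NC.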
